A study of Danio rerio with 4 samples.

Results

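The macrophage identity and receptor genes are a set of genes that mark macrophages in zebrafish or sit at the surface of these cells, chosen by name. Of 9 listed genes, 7 matched a row of the deposited count table and are described here: csf1ra, havcr1, mpeg1.1, mfap4, lgals9l1, spi1a and spi1b. The other 2, csf1rb and marco, were not analysed here. The table holds 14781 genes in all. It covers RNA (total RNA in the sample titles) of untreated adult zebrafish (Danio rerio), from the whole gut, in 2 animals heterozygous and 2 animals homozygous for the st95 allele of irf8. The heterozygous fish, which serve as the controls, carry the mutant allele too. Whole gut holds epithelium, muscle, vessels and any attached pancreas, so macrophages are a small part of each sample, and in such bulk RNA fewer macrophages and less RNA per macrophage cannot be told apart.

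Irf8 is a transcription factor that binds DNA together with PU.1, the product of spi1 genes, and it is required for macrophages to form in zebrafish embryos. The products of the csf1r genes are receptors for the growth factors CSF1 and IL34, which keep macrophages alive and proliferating. In the gut, macrophages lie beneath the epithelium, take up dying cells and microbes, and are replenished throughout life. Setting homozygous beside heterozygous guts addresses which macrophage transcripts depend on intact irf8 in the adult.

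Library totals ranged from 6350840 to 10391963 counts. The targeted gene, irf8, was counted 30 and 50 times in heterozygotes against 25 and 25 times in homozygotes, which does not by itself check the labels, since a mutant allele can still be transcribed. Enterocyte markers were present in every library, with 10 of 10 matched and tested. Heterozygous replicate 2 stood apart: 12 pancreas marker genes took 20.4% of its counts, against 1.01% in heterozygous replicate 1, 3.198% in homozygous replicate 1 and 0.323% in homozygous replicate 2. The 3 of these genes with the smallest unadjusted p, the insulin gene ins and the digestive enzyme genes cpa1 and ela2, were all highest in that library. Only for ins, of the 12, did the genotypes not overlap, where 39.2% of all tested genes were apart in either direction. ins had 89 and 7031 counts in heterozygotes against 0 and 0 in homozygotes. It passed the count filter only through the heterozygous libraries, so its direction is no support. The authors' deposited table of 76 genes lists ins at a log2 fold change of -14.6.

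The 7 genes did not move together. The receptor genes csf1ra and havcr1 were several-fold lower in both homozygous fish, mpeg1.1 was slightly lower, lgals9l1 and spi1b were higher, and mfap4 and spi1a overlapped between the genotypes. All 7 passed the count filter. Levels below are TMM-normalised CPM, which are counts scaled to library size. The 7 divided into 3 with a negative and 4 with a positive log2 fold change (homozygous minus heterozygous). Over all 9701 tested genes 53.3% had a negative and 46.7% a positive value. The median was 0.28 for the 7 genes and -0.05 over all tested genes. The edgeR quasi-likelihood test, adjusted by Benjamini-Hochberg over all genes, called 0 of the 7 at 0.05, and 0% of all tested genes (lowest adjusted p = 0.699). At an unadjusted p under 0.05 edgeR listed 2 of the 7, both lower, and 628 of all genes, or 6.47%. These 2, csf1ra and havcr1, passed the count filter only through the heterozygous libraries, where they were high. Genes admitted in this way could only come out lower, so their direction and share are no support. DESeq2, run on the same 9701 genes, called 53, and 0 of them were among the 7. It set no adjusted p for 1317 genes, csf1ra and havcr1 among them, so these 2 could not be called. For 3 of the 7 the higher homozygous value was still under the lower heterozygous one, where 19.3% of tested genes did so. The reverse held for 2 of the 7, where the share over all tested genes was 19.9%. With 5 of 7 not overlapping against a background of 39.2%, the count over so few genes does not set the list apart.

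**Figure D1:**
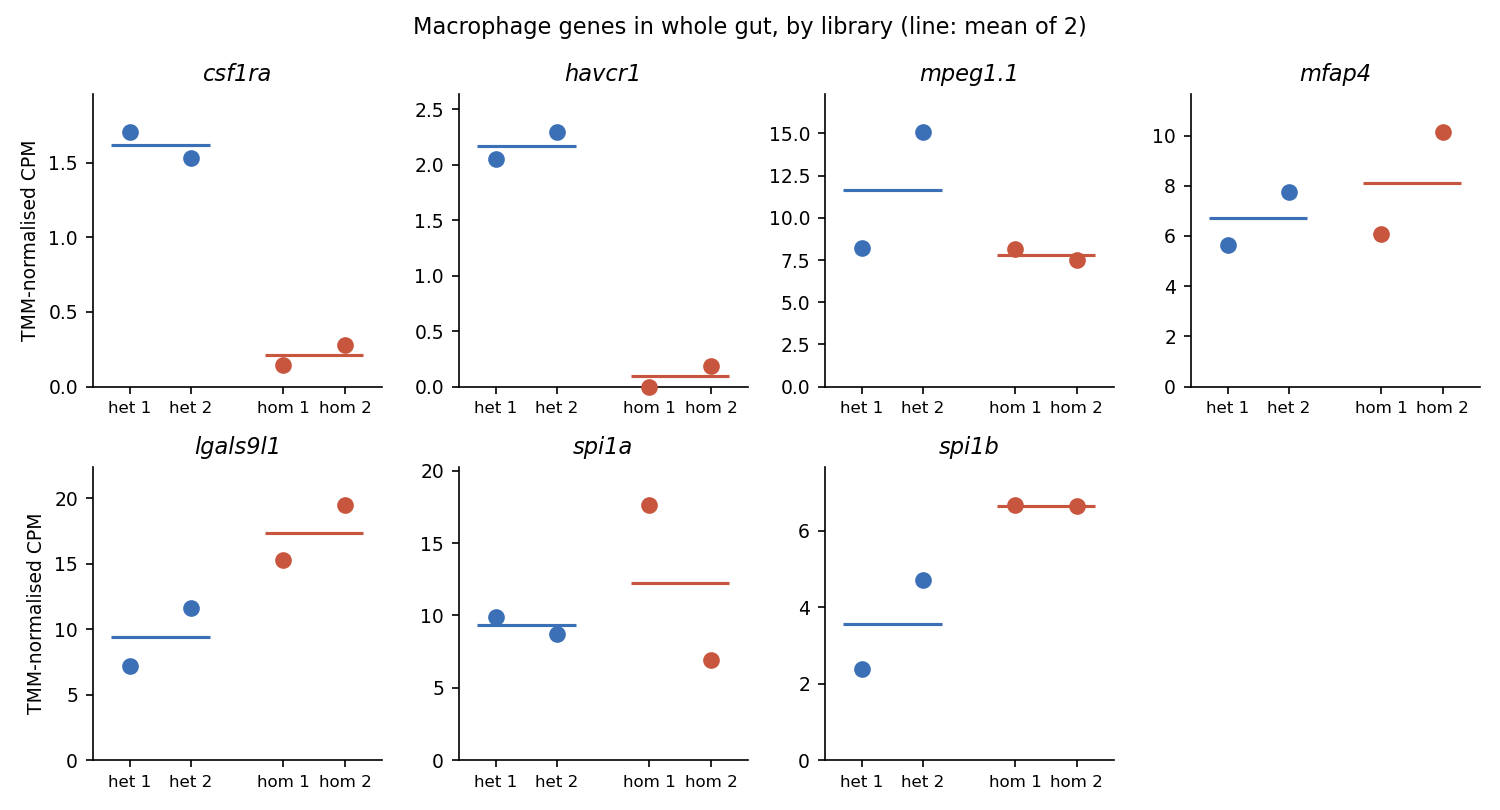
Normalised level of each macrophage gene in the 4 gut libraries, in TMM-normalised CPM, with heterozygous libraries in blue, homozygous in red and a line at the mean of each pair. csf1ra and havcr1 are near 0 in both homozygous libraries, lgals9l1 and spi1b are higher in both, and mpeg1.1 differs mainly through heterozygous replicate 2.

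csf1ra encodes a receptor tyrosine kinase for CSF1 and IL34, and in zebrafish it also acts in pigment cells of the skin. The gene lies on chromosome 14, from 3170816 to 3202039 on the minus strand, with 21 exons in danRer10. Its counts were 10 and 14 in heterozygotes against 1 and 3 in homozygotes. Scaled to library size these were 1.71 and 1.53 CPM against 0.148 and 0.277 CPM. Both homozygous values lay far below both heterozygous values, which were close to each other. The heterozygous mean was 1.62 ± 0.124 CPM (SD, n = 2) and the homozygous mean 0.212 ± 0.0910 CPM. The ratio of summed counts was 7.04 in favour of the heterozygotes, with a 95% counting interval of 2.42 to 27.9 that leaves out variation between fish. The fitted log2 fold change was -2.79 ± 1.03 (SE), with a 95% interval of -5.35 to -0.23 and an edgeR adjusted p of 0.699. With no count filter and without heterozygous replicate 2, the library rich in pancreas RNA, it was -2.86, with 1 heterozygous library of 10 counts left. With library sizes taken without the pancreas marker genes, the csf1ra value was -2.79. Beyond library size, the part of pancreas RNA in the csf1ra values was not tested.

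Markers of pigment cells, another known site of csf1ra expression in zebrafish, were low. Of 12 such genes 11 matched, and their summed level was 0.341 to 5.14 CPM in heterozygotes and 2.40 to 7.11 CPM in homozygotes. The yellow pigment cell genes aox5 and pax7b had 0 counts in every library. gch2, a pteridine synthesis gene of the same cells, had 0 and 2 counts against 0 and 1. The list went both ways. Its 1 tested gene, pnp4a, which marks silvery pigment cells, had 0 and 7 counts against 37 and 13. pnp4a passed the count filter only through the homozygous libraries, so its direction is no support. sox10, a factor gene of the neural crest, had 0 and 14 counts against 4 and 1, pmela, a gene of pigment granules, 0 and 12 against 3 and 5, and the receptor kinase gene ltk 0 and 10 against 0 and 6, so these 3 were highest in heterozygous replicate 2. Without heterozygous replicate 1, 3 genes of the list were tested, 2 lower and 1 higher. The part of pigment cells in the csf1ra values was not tested.

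havcr1 encodes a protein of the TIM family, whose mammalian members bind phosphatidylserine on dying cells. It lies on chromosome 21, from 29065697 to 29073476 on the minus strand, with 7 exons. It was counted 12 and 21 times in heterozygotes against 0 and 2 times in homozygotes. These were 2.05 and 2.30 CPM against 0 and 0.185 CPM, where 3 counts, the limit that a count of 0 allows, would be 0.444 CPM in homozygous replicate 1. Both homozygous libraries were at or under that limit. The ratio of summed counts was 19.4, with a counting interval of 4.95 to 166. The fitted value, which depends on the prior count for a gene this low, was -4.16 ± 1.24 (SE; 95% interval -7.25 to -1.08; edgeR adjusted p = 0.699), and -4.06 without heterozygous replicate 2 and with no count filter. It moved to -6.99 without homozygous replicate 2, when the 1 homozygous library left has 0 counts, and to -3.43 without homozygous replicate 1.

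timd4, the neighbouring TIM family gene on chromosome 21 (29053957 to 29063412, minus strand), had 0 and 0 counts against 1 and 0. With 1 count in all 4 libraries, no comparison of the pair was possible. DESeq2 gave havcr1 an unadjusted p of 0.00976 and csf1ra 0.0553, and set no adjusted p for either under its filter on low mean counts. Leaving out any of the 4 libraries kept the fitted values of both receptor genes negative, with no count filter in the case of heterozygous replicate 2. Since the genotypes did not overlap for either gene, leaving out a library could hardly turn the sign. Its stability is therefore no support.

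**Figure D2:**
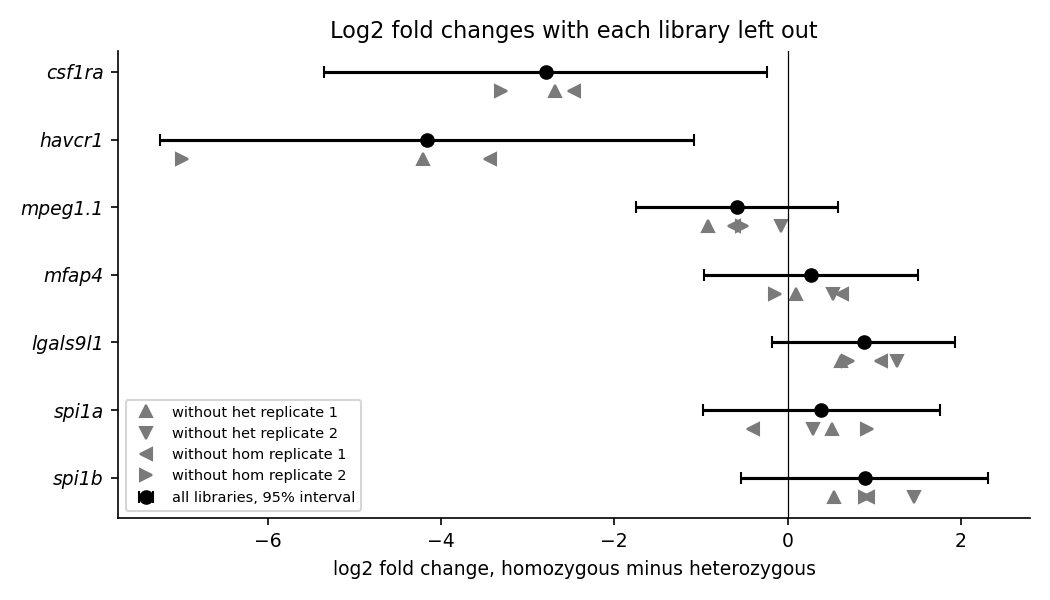
Log2 fold change of each gene, homozygous minus heterozygous, with its 95% interval from edgeR (black) and the value with each library left out (grey triangles). The intervals of csf1ra and havcr1 lie below 0, those of the other 5 cross it, and the sign of mfap4 and spi1a depends on 1 homozygous library. Triangles for csf1ra and havcr1 without heterozygous replicate 2 are missing because both genes then miss the count filter.

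mpeg1.1 encodes perforin-2, a pore-forming protein that acts on engulfed bacteria. Its promoter is widely used to label macrophages in zebrafish, and some B cells and skin cells use it as well. It lies on chromosome 8, from 29700889 to 29704389 on the minus strand, with 2 exons. Counts were 48 and 138 in heterozygotes against 55 and 81 in homozygotes, or 8.19 and 15.1 CPM against 8.14 and 7.47 CPM. Homozygous replicate 1 lay just under heterozygous replicate 1, and heterozygous replicate 2 alone was high. The log2 fold change was -0.58 ± 0.47 (SE; 95% interval -1.75 to 0.59; edgeR adjusted p = 0.750). Without heterozygous replicate 2 it was -0.08, and without heterozygous replicate 1 it was -0.92.

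The relatives of mpeg1.1 were close to the limit of detection. mpeg1.2, also on chromosome 8, had 5 and 15 counts against 8 and 2, and mpeg1.3 had 0 in every library. The log2 ratio of mpeg1.1 to mpeg1.2 was 0.72 higher in homozygotes (exact permutation p = 1, two-sided), but turned to -0.44 without homozygous replicate 2. csf1ra was also set against mpeg1.1 within each library. There were 0.208 and 0.101 csf1ra counts per mpeg1.1 count in heterozygotes and 0.0182 and 0.0370 in homozygotes. The log2 ratio was 2.14 units lower on average in homozygotes, -4.88 against -2.73 (exact two-sided permutation p = 0.333, the smallest that 6 arrangements of 4 libraries allow). Both homozygous ratios were below both heterozygous ratios. This comparison and that of the mpeg genes were chosen after the values were seen.

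mfap4 encodes a fibrinogen-domain protein, and its promoter is another label of zebrafish macrophages. The row lies on chromosome 1, from 58313623 to 58314908 on the plus strand, with 5 exons; RefSeq (assembly GRCz12tu, used for names only) now calls it mfap4.1. Counts were 33 and 71 in heterozygotes against 41 and 110 in homozygotes. In CPM these were 5.63 and 7.77 against 6.07 and 10.2, so the genotypes overlapped. The log2 fold change was 0.28 ± 0.50 (SE; 95% interval -0.96 to 1.51; edgeR adjusted p = 0.898) and turned to -0.15 without homozygous replicate 2.

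Other genes of the mfap4 cluster on chromosome 1 differed from it in level and in direction. zgc:171687, named mfap4.4 in RefSeq, had far more counts, at 201 and 175 CPM in heterozygotes against 363 and 514 (log2 fold change 1.22 ± 0.47; edgeR adjusted p = 0.699). zgc:173915, named mfap4.2, lies just before mfap4 (58311121 to 58312450, plus strand) and was at 5.97 and 8.75 CPM against 2.96 and 3.69 (-1.14 ± 0.53; edgeR adjusted p = 0.699). In both the libraries of the genotypes did not overlap, where 39.2% of all tested genes were apart in either direction. Reads shared by copies in such a cluster can be lost or split in counting, so the values of single copies are uncertain.

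lgals9l1 encodes a galectin, a lectin that binds galactose-containing sugars. It lies on chromosome 15, from 31151515 to 31162442 on the minus strand, with 10 exons. Counts were 42 and 106 in heterozygotes against 103 and 211 in homozygotes, or 7.17 and 11.6 CPM against 15.3 and 19.5 CPM. Both homozygous libraries were above both heterozygous ones. The log2 fold change was 0.88 ± 0.42 (SE; 95% interval -0.17 to 1.94; edgeR adjusted p = 0.699), and 1.27 without heterozygous replicate 2. Its neighbour zgc:92326, named lgals9l3 in RefSeq, lies on the same strand (31173459 to 31186924) and was at 64.0 and 53.7 CPM against 111 and 116 CPM (0.95 ± 0.36; edgeR adjusted p = 0.699). The libraries of this neighbour did not overlap either. Of 14 other galectin genes listed, 9 matched and 5 were tested, 4 lower and 1 higher, with a median log2 fold change of -0.27. The higher gene was zgc:92326. This balance turned to 2 lower and 3 higher without either heterozygous library, with a median of 0.13 without replicate 1 and 0.75 without replicate 2. lgals2b, with the most counts of the list, was at 9001 and 2915 CPM against 4666 and 3792, and lgalsla had a log2 fold change of -0.21 ± 0.40.

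The spi1 genes encode PU.1 proteins, which switch on genes of macrophages and, in zebrafish as in mammals, of neutrophils. spi1b, the principal zebrafish PU.1 gene in embryonic myeloid cells, lies on chromosome 7 (32374523 to 32387857, minus strand, 6 exons). Counts were 14 and 43 in heterozygotes against 45 and 72 in homozygotes, or 2.39 and 4.704 CPM against 6.66 and 6.64 CPM. The homozygous libraries agreed closely and were both above the heterozygous ones. The log2 fold change was 0.89 ± 0.57 (SE; 95% interval -0.53 to 2.32; edgeR adjusted p = 0.709), 1.46 without heterozygous replicate 2 and 0.53 without heterozygous replicate 1.

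spi1a, the duplicate of spi1b, lies on chromosome 25 (35048603 to 35067305, plus strand, 6 exons). Counts were 58 and 80 in heterozygotes against 119 and 75 in homozygotes, or 9.90 and 8.75 CPM against 17.6 and 6.92 CPM. The homozygous libraries lay on either side of the heterozygous ones. The log2 fold change was 0.39 ± 0.55 (SE; 95% interval -0.98 to 1.76; edgeR adjusted p = 0.858), and -0.40 without homozygous replicate 1. Counts of spi1b per count of spi1a were 0.241 and 0.538 in heterozygotes against 0.378 and 0.960 in homozygotes, which overlap. The log2 ratio was 0.72 higher in homozygotes (exact two-sided permutation p = 0.667).

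Neutrophil markers, which belong to another cell type that uses spi1b, were higher in both homozygous libraries as a sum, which was mostly ncf1. Of 11 markers 9 matched, and they summed to 79.4 to 144 CPM in heterozygotes and 182 to 239 CPM in homozygotes, with 1 of the 9 at 0 in every library. Of 7 tested, 6 were higher and 1 lower, 3 with both homozygous libraries on top, where 19.9% of all tested genes had this order. These 3 were ncf1, cybb and il6r. mpx, the neutrophil myeloperoxidase gene, was at 1.19 and 8.42 CPM against 27.2 and 6.46 CPM. The lysozyme gene lyz was at 0.341 and 2.74 CPM against 5.03 and 0.738 CPM, so both genes overlapped between the genotypes. The lower gene was csf3r, at 1.54 and 1.42 CPM against 1.78 and 0.185 CPM. cybb, an oxidase gene of phagocytes in general, was at 2.56 and 3.39 CPM against 8.29 and 6.09 CPM, and il6r, an interleukin 6 receptor gene, at 1.54 and 2.19 CPM against 3.70 and 9.87 CPM. Their part in the spi1b values was not tested.

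Levels of the 7 genes were compared with each other per exon length, as TMM-normalised RPKM (CPM divided by exon length in kilobases) over the 4 libraries. mfap4 was at 7.70 ± 2.13 RPKM (SD, n = 4 libraries), lgals9l1 at 6.08 ± 2.38, spi1a at 5.10 ± 2.23 and spi1b at 4.97 ± 1.97. mpeg1.1 followed at 3.71 ± 1.37 RPKM, havcr1 at 1.13 ± 1.21 and csf1ra at 0.267 ± 0.238. The ranges of each pair of neighbours in this order overlapped, except that the lowest mpeg1.1 value of 2.85 RPKM was above the highest havcr1 value of 2.30 RPKM. The order differed within genotypes. In the heterozygotes alone mfap4 was at 6.96 RPKM and mpeg1.1 came next at 4.44, followed closely by spi1a at 4.41 and lgals9l1 at 4.27, and then spi1b at 3.45. In the homozygotes mpeg1.1, at 2.98 RPKM, was under mfap4 (8.43), lgals9l1 (7.89), spi1b (6.48) and spi1a (5.80). In the heterozygotes havcr1 was at 2.17 ± 0.176 RPKM and csf1ra at 0.473 ± 0.0362, so the growth factor receptor gene was the lowest per length there as well. The homozygous means were 0.0922 RPKM for havcr1 and 0.0620 for csf1ra.

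Set against other leukocyte genes, all 7 were lowest in homozygous replicate 1, the library with the largest sum of those genes. That large divisor lowers every gene in this library, so this order is no support. The 5 matched of 8 pan-leukocyte genes (coro1a, lcp1, arpc1b, wasb and sla2) summed to 79.9 and 142 CPM in heterozygotes against 367 and 138 in homozygotes, and all 5 had a positive log2 fold change, with a median of 0.97. Of these, coro1a, an actin regulator of blood cells, was at 16.2 and 45.1 CPM against 147 and 43.0, arpc1b, an actin-nucleating subunit, at 24.2 and 37.5 against 82.6 and 38.3, and sla2, an adaptor of lymphocyte receptors, at 16.9 and 15.6 against 43.8 and 18.7. Per 1000 counts of these genes, csf1ra had 21.4 and 10.8 counts in heterozygotes against 0.403 and 2.001 in homozygotes. havcr1 had 25.6 and 16.2 against 0 and 1.33.

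On this scale the genotypes did not overlap for mpeg1.1, at 103 and 106 per 1000 leukocyte counts in heterozygotes against 22.2 and 54.0 in homozygotes. spi1a, which overlapped in CPM and was highest in homozygous replicate 1 there (17.6 CPM), was at 124 and 61.6 against 48.0 and 50.0. The large divisor of homozygous replicate 1 lowers every gene in that library. The share of all genes lower on this scale was not computed, so the number of genes apart on it is no support. mfap4 (70.5 and 54.7 against 16.5 and 73.4), lgals9l1 (89.7 and 81.6 against 41.5 and 141) and spi1b (29.9 and 33.1 against 18.2 and 48.0) overlapped, with homozygous replicate 2 highest for all 3. T and NK cell markers were also higher in both homozygous libraries as a sum. The 12 matched of 13 T and NK cell markers summed to 11.8 to 25.6 CPM in heterozygotes and 57.3 to 126 CPM in homozygotes, with none at 0 in homozygotes and 2 at 0 in heterozygotes. Of 9 tested, 8 were higher and 1 lower, where 46.7% of all tested genes had a positive log2 fold change. Among them runx3, a factor of cytotoxic lymphocytes, was at 5.97 and 7.44 CPM against 35.1 and 29.5. tcf7, a T cell factor, was at 0.341 and 0.656 CPM against 3.41 and 2.95. foxp3a, the regulatory T cell factor, was at 0 and 0.656 CPM against 14.2 and 1.85. The T cell gene cd8a had 3 and 11 counts against 60 and 19. tcf7, foxp3a and cd8a passed the count filter only through the homozygous libraries. Their direction, and their part in the 8 higher genes, are no support. The lower gene, gata3, had 11 and 32 counts against 17 and 17 (log2 fold change -0.41 ± 0.75), and its genotypes overlapped. Of 6 B cell markers 3 matched and 1 was tested: blnk, a B cell adaptor gene, was at 3.07 and 1.42 CPM against 9.92 and 8.67. The 3 summed to 2.08 to 3.41 CPM in heterozygotes and 8.77 to 10.7 CPM in homozygotes, mostly through blnk. The others were near the limit of detection. pax5 had 0 and 5 counts against 2 and 1, and zgc:171713, named cd37 in RefSeq, had 2 and 1 against 3 and 0. The part of these lymphocyte genes in the ratios was not tested.

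**Figure D3:**
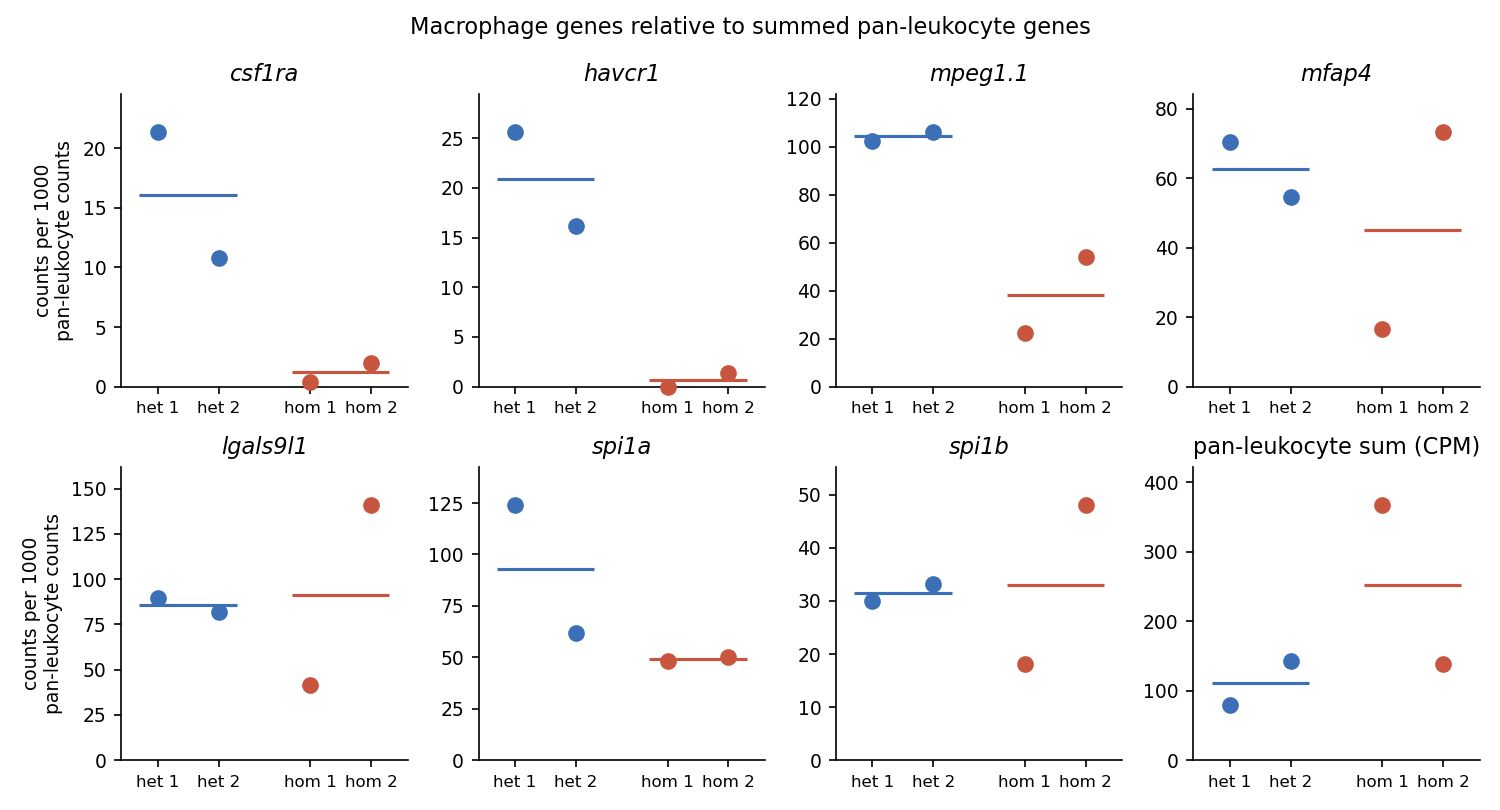
Counts of each macrophage gene per 1000 summed counts of 5 pan-leukocyte genes in each library, and the summed CPM of those 5 genes in the last panel, with a line at the mean of each pair. csf1ra, havcr1, mpeg1.1 and spi1a are lower in both homozygous libraries on this scale, and the pan-leukocyte sum is highest in homozygous replicate 1. That large divisor lowers every gene in this library, and the share of all genes lower on this scale was not computed.

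Signalling genes that act within the cell after the CSF1 receptor had the opposite sign to csf1ra. csf1a, the 1 ligand gene tested, had the same sign as csf1ra, but through heterozygous replicate 2 alone. Of 17 listed ligand and signalling genes 12 matched and 8 were tested, 7 higher and 1 lower, with a median log2 fold change of 0.99, and 0 were called by edgeR. In 6 of the 8 the genotypes did not overlap, all on the higher side, where 19.9% of all tested genes had this order. The ligand genes were sparse: csf1a had 0 and 26 counts in heterozygotes against 10 and 5, csf1b had 1 and 14 against 5 and 3, and il34 had 0 and 0 against 1 and 0. The log2 fold change of csf1a was -0.64 ± 1.59 (SE), and its heterozygous replicate 1 lay below both homozygous libraries. Without homozygous replicate 2 the list stood at 0 lower and 8 higher, and without homozygous replicate 1 at 2 lower and 7 higher. Without heterozygous replicate 1 it stood at 2 lower and 8 higher, and without heterozygous replicate 2 at 1 lower and 7 higher. Of the kinase and lipase genes that act inside the cell, and that lymphocytes or epithelium also use, 3 had the smallest unadjusted p. plcg2, a phospholipase of immune receptors, was at 27.99 and 28.7 CPM against 56.9 and 97.7 (1.45 ± 0.41; edgeR adjusted p = 0.699). The phosphoinositide 3-kinase gene pik3cd was at 1.02 and 4.38 CPM against 14.4 and 10.9 (2.18 ± 0.73), and pik3cg at 13.3 and 7.99 against 24.9 and 19.7 (1.07 ± 0.42).

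Transcription factor genes of myeloid cells went both ways. Of 22 listed 21 matched and 16 were tested, 11 higher and 5 lower (median 0.59), with 0 called by edgeR, and the groups did not overlap for 6 higher and 2 lower, or 8 of 16 against 39.2% of all tested genes, which does not set the list apart. The duplicates mafba and mafbb, zebrafish counterparts of a macrophage factor of mammals, differed in sign. mafba was at 8.53 and 17.8 CPM in heterozygotes against 26.1 and 57.9 (1.67 ± 0.57; edgeR adjusted p = 0.699). mafbb was at 26.1 and 99.2 CPM against 2.81 and 18.9 (-2.51 ± 1.03). nr1h3, a sterol-sensing nuclear receptor gene also active in gut epithelium, was at 19.5 and 18.4 CPM against 24.1 and 66.7 (1.27 ± 0.54), and irf8 itself had a log2 fold change of -0.82 ± 0.58.

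For other receptors of dying cells the genotypes overlapped. Of 15 phosphatidylserine receptor and bridging genes 8 matched and 7 were tested, 5 lower and 2 higher (median -0.45), and none of the 7 had its genotypes apart. This direction rested on heterozygous replicate 2: without it 0 were lower and 7 higher, with a median of 0.82. stab2, a scavenger receptor gene of sinusoidal vessels, was at 2.39 and 11.0 CPM against 3.11 and 1.75, and its relative stab1 at 3.58 and 16.96 against 7.40 and 3.23, so heterozygous replicate 2 was high in both. tyro3, a receptor tyrosine kinase gene, was at 4.44 and 1.86 CPM against 1.78 and 13.8. Markers of stroma and endothelium were high in heterozygous replicate 2 too, and as a sum higher still in homozygous replicate 1: 11 of 12 matched, and they summed to 387 and 2012 CPM in heterozygotes and 2408 and 363 CPM in homozygotes, with 1 of the 11 at 0 in each genotype. Of 10 tested 7 were lower and 3 higher, and without heterozygous replicate 2 these were 5 and 5. pecam1, an endothelial adhesion gene, was at 13.8 and 17.8 CPM against 5.48 and 2.95, and the collagen genes col1a1a (65.9 and 322 against 59.4 and 36.8) and col1a2 (61.8 and 284 against 54.2 and 38.1) were highest in heterozygous replicate 2. The 3 higher genes belong to smooth muscle and were highest in homozygous replicate 1: acta2 was at 122 and 780.5 CPM against 1261 and 159.9, tagln at 80.7 and 367 against 837 and 71.6, and myh11a at 31.6 and 166 against 178 and 43.4. The part of these markers in the stab1 and stab2 values was not tested.

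Of 11 scavenger receptor genes 5 matched and 4 were tested, 2 lower and 2 higher (median 0.06), or 1 lower and 3 higher without heterozygous replicate 2 (median 0.43). scarb1, a lipoprotein receptor gene that enterocytes also express, was at 18.3 and 14.99 CPM against 35.98 and 57.5 (1.49 ± 0.39; edgeR adjusted p = 0.699). scarb2, of the lysosomal membrane, was at 5.97 and 41.8 against 3.55 and 9.69, and cd36, a fatty acid receptor gene, at 1480 and 416 against 953 and 1511. Enterocyte markers summed to 33117 to 98525 CPM in heterozygotes and 53726 to 57521 CPM in homozygotes, with none of the 10 at 0 in either genotype. Of the 10, 7 were higher and 3 lower, and 6 and 4 without heterozygous replicate 2. Among them the peptide transporter gene slc15a1b was at 276 and 196 CPM against 740 and 1249, the peptidase gene mep1b at 277 and 224 against 801 and 940.0, and the intestinal factor gene cdx1b at 22.2 and 10.8 against 35.5 and 94.2. The 3 lower genes were fabp6, a bile acid binding protein gene, at 6443 and 11863 CPM against 1505 and 2444 (-2.21 ± 0.84; edgeR adjusted p = 0.699), the fatty acid binding protein gene fabp2 at 18453 and 3444 against 11284 and 8824, and the apolipoprotein gene apoa1a at 66279 and 13752 against 37299 and 29652. Both homozygous libraries were lowest for fabp6, while fabp2 and apoa1a overlapped between the genotypes. The part of enterocytes in the scavenger receptor values was not tested.

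Other macrophage genes, on a list drawn up with earlier results of these samples known, also went both ways: of 28, 23 matched and 20 were tested, 11 lower and 9 higher (median -0.35), with 0 called by edgeR. Both homozygous libraries were lowest for 9 of the 20, where 19.3% of all tested genes had this order, and highest for 5, where 19.9% did. The 3 genes of this list with the smallest unadjusted p were, like csf1ra and havcr1, close to 0 in homozygotes. The complement gene c1qc had 26 and 65 counts against 2 and 4, and c1qa had 12 and 41 against 0 and 1. The chemokine gene ccl34b.1 had 17 and 16 against 0 and 0, at least 6.45-fold lower with 3 counts allowed per library. These 3 and c1qb, at 15 and 73 counts against 5 and 7, passed the count filter only through the heterozygous libraries. Their direction, and their part in the 9 of the 20, are no support. The others lowest in both homozygous libraries were grn1, grn2, lgmn, ctsl.1 and slc37a2. Of these, grn2 was at 125 and 128 CPM against 52.9 and 60.7. At an unadjusted edgeR p under 0.05 the list had 5 lower and 0 higher, where 6.47% of all tested genes were listed in either direction. Of those 5, all but grn2 passed the count filter only through the heterozygous libraries. The 5 genes highest in both homozygous libraries went the other way. slco2b1 was at 73.1 and 93.5 CPM against 123 and 187, and cxcr3.2 at 0.853 and 2.74 against 5.03 and 3.05. fcer1gl was at 3.58 and 6.35 CPM against 12.3 and 6.55. The apolipoprotein genes apoeb and apoc1l were at 4751 and 2632 against 4894 and 5448, and at 3135 and 1693 against 4184 and 4049. The part of other gut cells in the values of this list was not tested. Without heterozygous replicate 2 the list stood at 9 lower and 10 higher. The authors' deposited table of 76 genes lists c1qc, at a log2 fold change of -4.26, and lists 0 of the 7 genes described here.

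**Figure D4:**
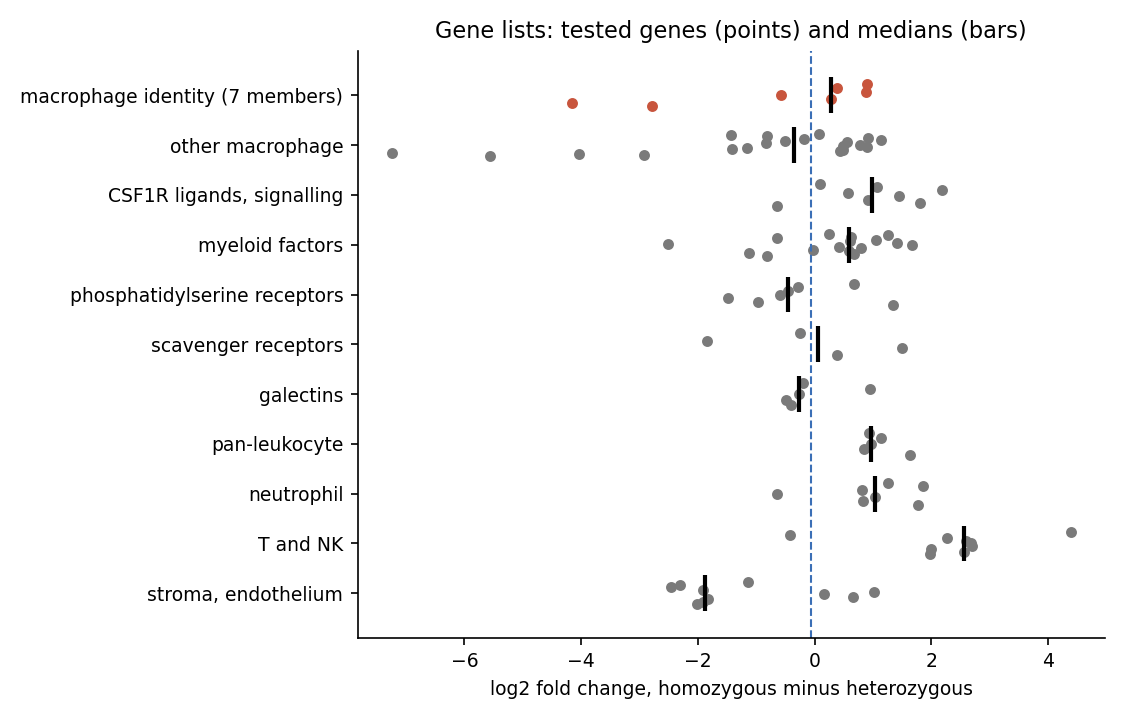
Log2 fold changes, homozygous minus heterozygous, of the tested genes of each list (points) with the list's median (bar) and the median of all tested genes (dashed line, -0.05). The 7 macrophage identity genes, in red, spread from -4.16 to 0.89, while the pan-leukocyte genes and all T and NK genes but 1 lie above 0. Of the T and NK genes, tcf7, foxp3a and cd8a passed the count filter only through the homozygous libraries.

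By pattern over the 4 libraries, taken as the distance between gene-centred log2 CPM values, the tested genes nearest to csf1ra were zgc:153284 (distance 0.28), cish (0.34) and fah (0.45), where the median over 9675 candidates was 2.24. zgc:153284 had 271 and 304 counts in heterozygotes against 51 and 104. It is in the authors' deposited table at a log2 fold change of -2.57, against -2.21 ± 0.39 by the edgeR fit. cish, a cytokine signalling inhibitor gene, had 51 and 76 counts against 10 and 31, and fah, a tyrosine breakdown gene, had 99 and 180 against 31 and 73. The genes nearest to mpeg1.1 were creg2 (0.08), zgc:66448 (0.08) and polr1b (0.09), where the median distance was 1.21, and each of these was high in heterozygous replicate 2. With 4 libraries, such likeness describes these fish and no more.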

How the data were processed

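Whole-gut RNA of 2 heterozygous and 2 homozygous fish was compared. Per the file headers, the authors counted read pairs per gene with featureCounts from Subread 1.5.2 on the UCSC danRer10 annotation, with the reverse strand setting (2) and no option for multi-mapping reads; these whole-number counts were deposited. Which aligner was used is not given in the sources. The authors' table of 76 genes holds log2 and linear fold values, p-values and a maximum group mean, a score of unstated unit; it was read for names and the log2 values quoted.

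Genes passing filterByExpr (minimum count 10, total 15) were scaled by TMM and tested with edgeR 4.0.16 in R 4.3.3, genotype as the only term; standard errors follow from the F statistic. DESeq2 1.42.0 was an alternative. Log CPM used a prior count of 2 and ratios a prior of 0.5. Counting intervals (95%, exact) and the floor of 3 counts cover counting error only. The edgeR p-values set the difference between genotypes against a spread estimated from 2 fish per genotype and partly shared across genes. Permutation p-values only rank the 6 arrangements of the libraries. The fit was tested on simulated counts in which every gene had the same dispersion, which need not hold for these libraries.

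The members and lists were chosen with earlier results of these data known. Named genes are the 7 members, irf8, up to 3 tested genes per list with the smallest unadjusted p, and 3 nearest genes for csf1ra and mpeg1.1; others were named after their values were seen. Of 222 list entries 153 matched by name and 12 by RefSeq synonym. The ratio of csf1ra to csf1rb could not be computed.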

Additional observations from a re-analysis of the deposited data

How the results depend on the processing

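No gene was called over all genes by edgeR with DESeq2 size factors, without a count filter, with a mean of at least 1 CPM, with the newer quasi-likelihood fit or at an adjusted p of 0.1. DESeq2's Wald test called 53. With 1 library left out, edgeR called 0 to 45 genes, the 45 without heterozygous replicate 1, and 170 without heterozygous replicate 2 and without a count filter; a lone library of a genotype is then assumed to vary like the other pair. With the replicate number as a block it called 0. The numbers are not said to pair the fish, and same-numbered deviations correlated across genes at r = 0.0643. With library sizes taken without the pancreas marker genes, 3 of the 7 genes had a negative value. With 1 library left out this number was 1 to 4. The 1, without heterozygous replicate 2, is of 5 tested, since csf1ra and havcr1 then miss the count filter; without the filter it was 3 of 7. mfap4 ranged from -0.15 (without homozygous replicate 2) to 0.62, and spi1a from -0.40 (without homozygous replicate 1) to 0.91. With 1 library left out the homozygous minus heterozygous log2 ratio ranged from 0.06 to 1.39 for spi1b to spi1a, from -2.67 to -1.62 for csf1ra to mpeg1.1, and from -0.44 (without homozygous replicate 2) to 1.88 for mpeg1.1 to mpeg1.2. The cause was not tested. The alternatives without heterozygous replicate 2 and without a filter, the newer fit and the mpeg1.1 ratios were chosen after seeing the data. Low counts limit csf1ra and havcr1, with 4 and 2 counts in both homozygous libraries together.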
